A study of Mus musculus with 6 samples.

Results

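The Mirg cluster is a run of miRNA hairpins on mouse chromosome 12 that lies in the imprinted region between Dlk1 and Dio3. Its rows were picked by name from a fixed list of 34 miRNA numbers, with any letter and either arm. The rule found 73 of the 1506 rows of the table, and these mature miRNAs come from 37 hairpins, 36 of them with both arms listed. The libraries were made from primary oligodendrocyte progenitor cells (OPCs), the cells that give rise to myelinating oligodendrocytes (OLs), grown from the cortex of newborn wild-type C57BL/6 pups. There were 3 fibrinogen-treated libraries (2.5 mg/mL) and 3 untreated libraries (labelled control, with a vehicle named in the study's methods), and the exposure time is not given in the sources used here. Fibrinogen is a clotting protein of blood plasma, and the comparison asked which miRNAs of OPCs differ in its presence. Microglia were shaken off the cultures, which were not sorted, and the table's headers number the 3 libraries of a group by mouse. The study's methods say in general that experiments were repeated independently, but not which cultures or pups went into which library, so the p-values measure the spread between these libraries, which may be technical.

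The cluster is a classic imprinted locus: its miRNAs are transcribed from the maternal chromosome, together with the noncoding RNAs Meg3, Rian and Mirg, and are thought to be cut from long primary transcripts. They are abundant in brain, most of all in neurons, where several of them act at synapses and dendrites, and the factor Mef2 drives their activity-dependent transcription. Each hairpin can give a 5p and a 3p miRNA, and the seed, bases 2 to 8 of the mature miRNA, largely decides which mRNAs it represses.

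In the RefSeq annotation of GRCm38.p6 the member hairpins spanned 38901 bp, chr12:109709060-109747960. Mir379 stood first (chr12:109709060-109709125) and Mir410 (chr12:109743715-109743795) closed the run of 36, followed by Mir3072 (chr12:109747878-109747960), the last by position. Of the 37 hairpins, 9 lay inside the noncoding gene Mirg as annotated (chr12:109734981-109749458), which gives the cluster its name, and 1, Mir299b, was on the minus strand, antisense to Mir299a. RefSeq gave mature sequences for 69 of the 73 members, with 64 different seeds. Sequences of several members whose groups did not overlap are shown first, since they are described singly below, with the seed in capitals.
miR-541-5p: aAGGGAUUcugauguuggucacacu
miR-667-5p: cGGUGCUGguggagcagugagcacg
miR-323-5p: aGGUGGUCcguggcgcguucgc
miR-134-5p: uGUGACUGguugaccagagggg
miR-409-3p: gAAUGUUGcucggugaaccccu
miR-376b-3p: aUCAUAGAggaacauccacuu
miR-376a-3p: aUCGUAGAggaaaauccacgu
miR-496a-3p: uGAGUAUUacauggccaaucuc
miR-758-3p: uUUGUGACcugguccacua
miR-495-5p: gAAGUUGCccauguuauuuuucg
miR-1197-3p: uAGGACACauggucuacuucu
miR-376b-3p and miR-376a-3p are printed beside each other because they are close relatives that stood on opposite sides of 0 here. Over their 21 bases they differ at 3 positions, counted from the 5′ end with miR-376a-3p first (G4A, A13C and G20U), and the first of these is in the seed.

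Among the 69 members with a sequence, only 5 seeds were shared by 2 members each, which makes 10 members in all. Members without a sequence could not be compared. The pairs are shown to make plain how far the cluster lacks a common seed, with the shared seed in capitals.
miR-379-5p: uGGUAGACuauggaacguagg
miR-1193-5p: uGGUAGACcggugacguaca
miR-379-3p: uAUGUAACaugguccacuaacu
miR-411-3p: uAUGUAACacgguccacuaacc
miR-376b-5p: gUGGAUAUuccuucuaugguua
miR-376c-5p: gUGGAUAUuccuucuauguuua
miR-410-5p: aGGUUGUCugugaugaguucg
miR-494-5p: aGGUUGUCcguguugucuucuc
miR-299a-3p: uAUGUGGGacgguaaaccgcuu
miR-299b-3p: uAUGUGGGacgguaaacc
miR-376b-5p and miR-376c-5p differ at 1 base (G19U, miR-376b-5p first), so the split of reads between them is uncertain. The same holds for miR-299a-3p and miR-299b-3p, whose printed sequences are alike over the length of the shorter.

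Levels are in TPM, here reads scaled to library size with no length correction, and every member value came out as a whole number of reads. The libraries held 12120909 to 13624613 reads in fibrinogen-treated OPCs and 11897645 to 14847035 reads in untreated OPCs, so that 1 read was worth 0.0669 to 0.0841 TPM. Untreated library 2 and fibrinogen library 3 held the highest or the lowest value of many members, and values without them are given beside the results that turn on them. Of the lists of cell type miRNAs, the 4 OL lineage miRNAs summed to 11450 to 14332 TPM in fibrinogen-treated OPCs and 12241 to 16643 TPM in untreated OPCs. The 8 neuron-rich miRNAs summed to 97845 to 102079 TPM in fibrinogen-treated OPCs, against 120561 to 128187 TPM in untreated OPCs, and 1 of the 8 (miR-128-3p) was called lower by limma (adjusted p under 0.05). All 8 were above 0 in every library, but a sum weighs the abundant ones most, and their single values are not given here. The Mirg cluster is itself rich in neurons, and the part of this difference between the sums in the members' values was not tested. The other lists overlapped between the groups. The 6 microglial and immune miRNAs summed to 1748 to 2073 TPM in fibrinogen-treated OPCs and 1766 to 2479 TPM in untreated OPCs, and the 4 of endothelium and mural cells to 13932 to 17194 TPM in fibrinogen-treated OPCs and 12809 to 16682 TPM in untreated OPCs. The 3 of red blood cells summed to 146 to 171 TPM in fibrinogen-treated OPCs and 167 to 594 TPM in untreated OPCs, and the 4 of epithelium to 125 to 584 TPM in fibrinogen-treated OPCs and 37.7 to 164 TPM in untreated OPCs. No other miRNA of these lists was called.

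The summed level of the cluster had no direction that held under both scales tried. Its members summed to 16326, 16374 and 17003 TPM in fibrinogen-treated OPCs, against 15362, 15645 and 16454 TPM in untreated OPCs. The ranges of the summed TPM overlapped, since untreated library 3 was above fibrinogen libraries 1 and 2. The means were 16568 ± 378 TPM in fibrinogen-treated OPCs and 15820.0 ± 567 TPM in untreated OPCs (SD, n = 3 each), a ratio of 1.05. As a share of the listed total the members made up 1.67% to 1.72% in fibrinogen-treated OPCs and 1.52% to 1.66% in untreated OPCs, and these ranges did not overlap. When the libraries were put on one scale by the median ratio over all miRNAs, the ratio was 0.955. The sums on that scale were 15611, 15862 and 15685 in fibrinogen-treated OPCs, against 16794, 16179 and 16411 in untreated OPCs. These ranges were apart too, but with the fibrinogen-treated sums on the lower side. In bulk libraries the number of cells that express the cluster and its level per cell cannot be told apart, in either direction.

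Single members covered a range of levels of more than 3 orders. Of the 73, 5 averaged at least 1000 TPM over the 6 libraries, 16 from 100 to 1000 TPM, 22 from 10 to 100 TPM, 21 from 1 to 10 TPM and 9 less than 1 TPM. The 12 most abundant members held 83.1% to 84.1% of the cluster's summed level in fibrinogen-treated OPCs and 81.5% to 84.3% in untreated OPCs. Level and distance from the first hairpin had a Spearman rho of -0.02 over the 64 tested members, which is a description.

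**Figure D1:**
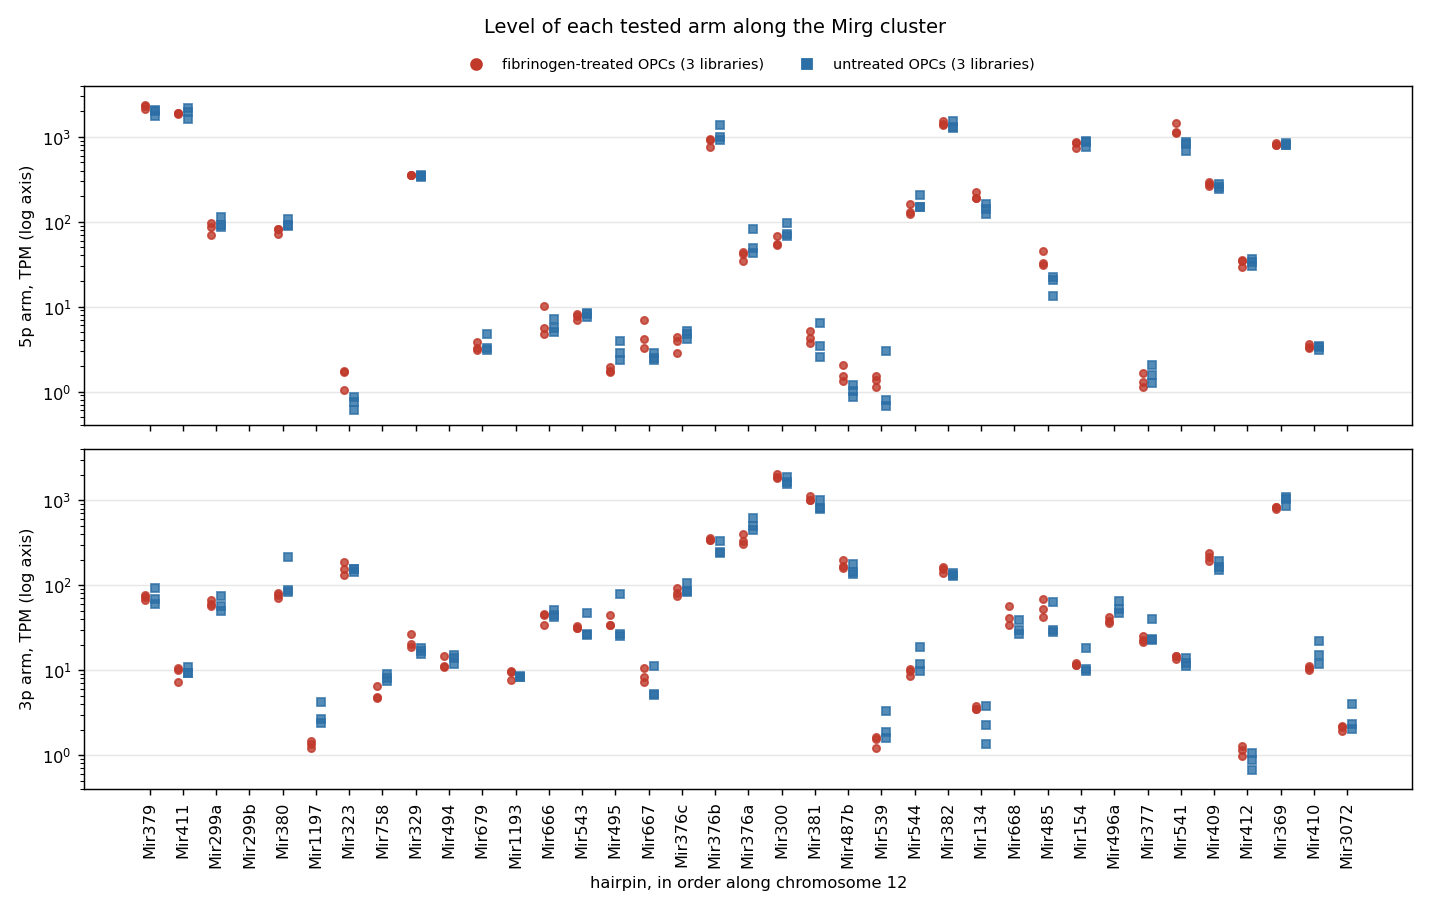
Level of the 64 tested members in TPM (log axis), for the 5p arms (upper panel) and the 3p arms (lower panel), with the 37 hairpins in order along chromosome 12. Each point is a library, fibrinogen-treated at the left and untreated at the right of a hairpin; abundant and rare hairpins alternate along the cluster, and the groups lie close together in most of them.

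The most abundant members belonged to hairpins at either end and in the middle. miR-379-5p, from the first hairpin, had 2323, 2123 and 2366 TPM in fibrinogen-treated OPCs, against 2013, 1767 and 2090.5 TPM in untreated OPCs. All fibrinogen libraries were above all untreated ones, but the log2 fold change was 0.22 ± 0.11 (SE), with a limma adjusted p of 0.236. After scaling by the median ratio, miR-379-5p was at 0.08. miR-411-5p, which differs from it in the seed (AGUAGAC in place of GGUAGAC), had 1914, 1920.0 and 1850.3 TPM in fibrinogen-treated OPCs, and 1969.7, 1619 and 2185 TPM in untreated OPCs. Its untreated libraries lay on both sides of the fibrinogen-treated ones, with a log2 fold change of -0.01 and a 95% interval of -0.31 to 0.29. miR-300-3p had 1853, 1877 and 2042 TPM in fibrinogen-treated OPCs and 1861, 1568 and 1649 TPM in untreated OPCs, and its log2 fold change was 0.19 ± 0.11 (limma adjusted p = 0.303).

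miR-382-5p had 1398, 1359 and 1536 TPM in fibrinogen-treated OPCs and 1289.9, 1251 and 1539 TPM in untreated OPCs, with a log2 fold change of 0.08. miR-381-3p, which acts in dendrite growth in neurons, had 1006, 1013 and 1114 TPM in fibrinogen-treated OPCs, against 819.9, 780.0 and 996 TPM in untreated OPCs. Its groups were separate by a narrow margin, and the log2 fold change was 0.28 ± 0.13 (limma adjusted p = 0.208). After scaling by the median ratio, miR-381-3p was at 0.14. The near-identical miR-300-3p and miR-381-3p are both 22 bases long and differ at 3 positions, 1 of them in the seed (G4A, U21G and C22U, miR-300-3p first).
miR-300-3p: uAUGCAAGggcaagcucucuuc
miR-381-3p: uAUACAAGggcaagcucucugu

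Further abundant members had log2 fold changes near 0. miR-329-5p had 356, 355 and 358 TPM in fibrinogen-treated OPCs and 340.7, 332 and 352 TPM in untreated OPCs, and its rarer partner miR-329-3p, known for its part in dendrite growth, had 20.2, 18.8 and 26.5 TPM in fibrinogen-treated OPCs, against 16.9, 18.4 and 15.5 TPM in untreated OPCs. Both arms were higher in every fibrinogen-treated library, by 0.06 and 0.34 on the log2 scale. The 3p arm was at 0.19 without fibrinogen library 3, and the 5p arm turned to -0.07 when the libraries were put on one scale by the median ratio. miR-154-5p had 840.1, 869 and 742 TPM in fibrinogen-treated OPCs and 762, 884 and 859 TPM in untreated OPCs. miR-369-5p had the narrowest interval of the tested members, with 795, 808 and 846 TPM in fibrinogen-treated OPCs, against 807, 793 and 839 TPM in untreated OPCs, a log2 fold change of 0.01 with a 95% interval from -0.22 to 0.23.

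Across all miRNAs, limma called 13 of 607 higher (2.14%) and 4 lower (0.659%) in fibrinogen-treated OPCs at an adjusted p under 0.05. None of the 64 tested members was among them, in either direction. At an unadjusted p under 0.05, 7 members were higher and 5 lower, which is 10.9% and 7.81% of the members, beside 20.1% and 5.60% of all miRNAs. By separation of the groups, 12 members were higher in all fibrinogen-treated libraries (18.8%, against 24.4% of all miRNAs) and 10 were lower in all of them (15.6%, against 8.73%). The same count of members, 32, had a log2 fold change above 0 and below 0, and the median was 0.00 beside 0.13 over all miRNAs. After scaling by the median ratio the medians were -0.13 and 0.00, and 22 members were then above 0 and 42 below it. The 95% interval lay between -1 and 1 for 53 of the 64 members, on the scale of log2(TPM + 1).

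**Figure D2:**
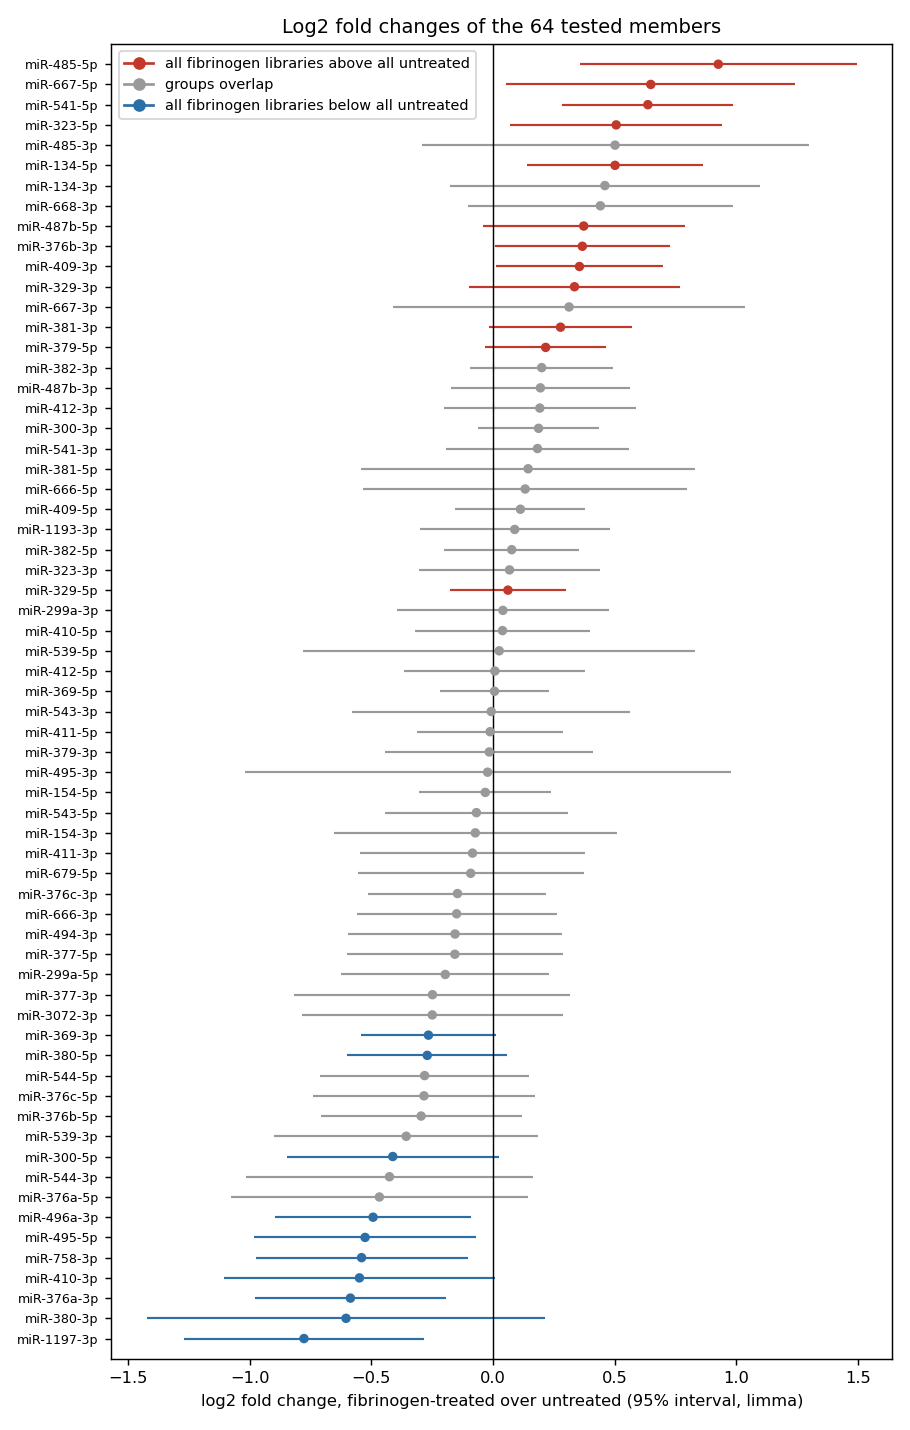
Log2 fold change of fibrinogen-treated over untreated OPCs for the 64 tested members, ordered by size, with 95% intervals from limma. Colours mark the 12 members that were higher and the 10 that were lower in all fibrinogen-treated libraries; the values run from 0.93 for miR-485-5p to -0.78 for miR-1197-3p, with 32 on each side of 0.

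The count tools, run on the recovered reads, called a few members. DESeq2 called 2 of the 64 higher (3.12%, against 4.45% of all miRNAs) and 5 lower (7.81%, against 6.10%). It gave no adjusted p for some rare members, miR-1197-3p, miR-495-5p and miR-323-5p among them, so these could not be called. The members called higher were miR-541-5p and miR-485-5p, and those called lower were miR-376a-3p, miR-369-3p, miR-496a-3p, miR-380-5p and miR-300-5p (the last 2 named here after their values were seen). edgeR's exact test called no member higher (1.98% of all miRNAs) and 2 lower (3.12%, against 1.65%), miR-1197-3p and miR-376a-3p. edgeR's quasi-likelihood test called none (1.32% of all miRNAs were called higher and 0.659% lower). At an unadjusted p under 0.05 it had 3 members higher (4.69%, against 11.4% of all miRNAs) and 13 lower (20.3%, against 11.5%). With the count tools 21 members were above 0 and 43 below it, and the median of the members was -0.18, beside -0.03 over all miRNAs by edgeR and -0.02 by DESeq2.

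Of the members on the higher side, miR-541-5p, which targets synapsin I in neurons, had the smallest adjusted p. It had 1148, 1108 and 1442 TPM in fibrinogen-treated OPCs, against 869.7, 681 and 822 TPM in untreated OPCs. The lowest fibrinogen-treated library was above the highest untreated one, and the log2 fold change was 0.64 ± 0.15 (SE), with a limma adjusted p of 0.0720. Leaving out any of the libraries left it between 0.52 and 0.71. Its hairpin lies at chr12:109742409-109742498, inside Mirg.

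miR-485-5p, which represses the synaptic vesicle protein SV2A in neurons, had the largest log2 fold change of the cluster. It had 32.9, 31.3 and 44.6 TPM in fibrinogen-treated OPCs, against 20.7, 13.4 and 22.3 TPM in untreated OPCs. The groups did not overlap, fibrinogen library 3 was the highest and untreated library 2 the lowest. The log2 fold change was 0.93 ± 0.24 (limma adjusted p = 0.0904), and 0.71 without untreated library 2. For 3 libraries against 3, the smallest p that an exact two-sided permutation test of any member could reach was 0.1, which is what separate groups give.

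miR-134-5p is the best known member, a brake on Limk1 translation in dendritic spines. It had 187, 191 and 226 TPM in fibrinogen-treated OPCs, against 141, 123 and 163 TPM in untreated OPCs. These groups were separate as well, with a log2 fold change of 0.50 ± 0.15 (limma adjusted p = 0.119), and of 0.40 without untreated library 2. Its hairpin (chr12:109734139-109734209) lies near that of miR-485 (chr12:109734902-109734974). The other arms of these hairpins were less clear, since the 3p arm of Mir134 had a log2 fold change of 0.46 and that of Mir485 of 0.50, both with overlapping groups.

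The rest of the higher side was less abundant or less clear. miR-409-3p had 194, 217 and 242 TPM in fibrinogen-treated OPCs, against 164, 153 and 192 TPM in untreated OPCs, which only just parted the groups (log2 fold change 0.36 ± 0.15, limma adjusted p = 0.184). After scaling by the median ratio, miR-409-3p was at 0.22. miR-667-5p had 3.28, 4.10 and 6.92 TPM in fibrinogen-treated OPCs, from 44, 57 and 85 reads, against 2.85, 2.35 and 2.47 TPM in untreated OPCs, from 36, 28 and 37 reads. Its log2 fold change of 0.65 ± 0.25 (limma adjusted p = 0.175) was 0.40 without fibrinogen library 3. miR-323-5p rested on still fewer reads, 14, 24 and 21 in fibrinogen-treated OPCs against 11, 9 and 9 in untreated OPCs, with a log2 fold change of 0.51 ± 0.19 (limma adjusted p = 0.166). The remaining member on this side with an unadjusted limma p under 0.05 was miR-376b-3p, described below with its relatives.

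On the lower side, miR-1197-3p had the largest log2 fold change. It had 1.34, 1.22 and 1.47 TPM in fibrinogen-treated OPCs, against 2.38, 4.21 and 2.67 TPM in untreated OPCs. That is 18, 17 and 18 reads in fibrinogen-treated OPCs, against 30, 50 and 40 reads in untreated OPCs, and the groups were well apart. On the scale of log2(TPM + 1) the log2 fold change was -0.78 ± 0.21 (limma adjusted p = 0.0963), which understates so rare a miRNA, and it was -1.102 with a pseudocount of 0.1 TPM.

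miR-496a-3p, which targets N-cadherin in neural progenitors, had 37.9, 42.7 and 35.9 TPM in fibrinogen-treated OPCs, against 47.6, 65.9 and 52.8 TPM in untreated OPCs. The groups were separate, with a log2 fold change of -0.49 ± 0.17 (limma adjusted p = 0.152), and of -0.36 without untreated library 2. miR-369-3p shares this target, and it had 844, 838 and 794 TPM in fibrinogen-treated OPCs, against 869, 1090.0 and 1031 TPM in untreated OPCs. All fibrinogen-treated libraries were below the untreated ones, with a log2 fold change of -0.27 ± 0.12 (limma adjusted p = 0.206). The third of this target group, miR-543-3p, had 31.5, 31.8 and 33.0 TPM in fibrinogen-treated OPCs and 26.8, 47.3 and 26.3 TPM in untreated OPCs, so that its fibrinogen-treated libraries lay inside the untreated range.

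miR-758-3p had 4.85, 6.54 and 4.72 TPM in fibrinogen-treated OPCs, against 7.998, 9.08 and 7.56 TPM in untreated OPCs, again with no overlap (log2 fold change -0.54 ± 0.19, limma adjusted p = 0.150). miR-495-5p had 1.94, 1.73 and 1.71 TPM in fibrinogen-treated OPCs, against 2.38, 3.95 and 2.88 TPM in untreated OPCs (log2 fold change -0.53 ± 0.19, limma adjusted p = 0.168). miR-410-3p, from the hairpin that closes the run, had 11.05, 9.92 and 10.5 TPM in fibrinogen-treated OPCs, against 11.9, 22.1 and 14.9 TPM in untreated OPCs. Its log2 fold change of -0.55 became -0.32 without untreated library 2, the highest of the 6.

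**Figure D3:**
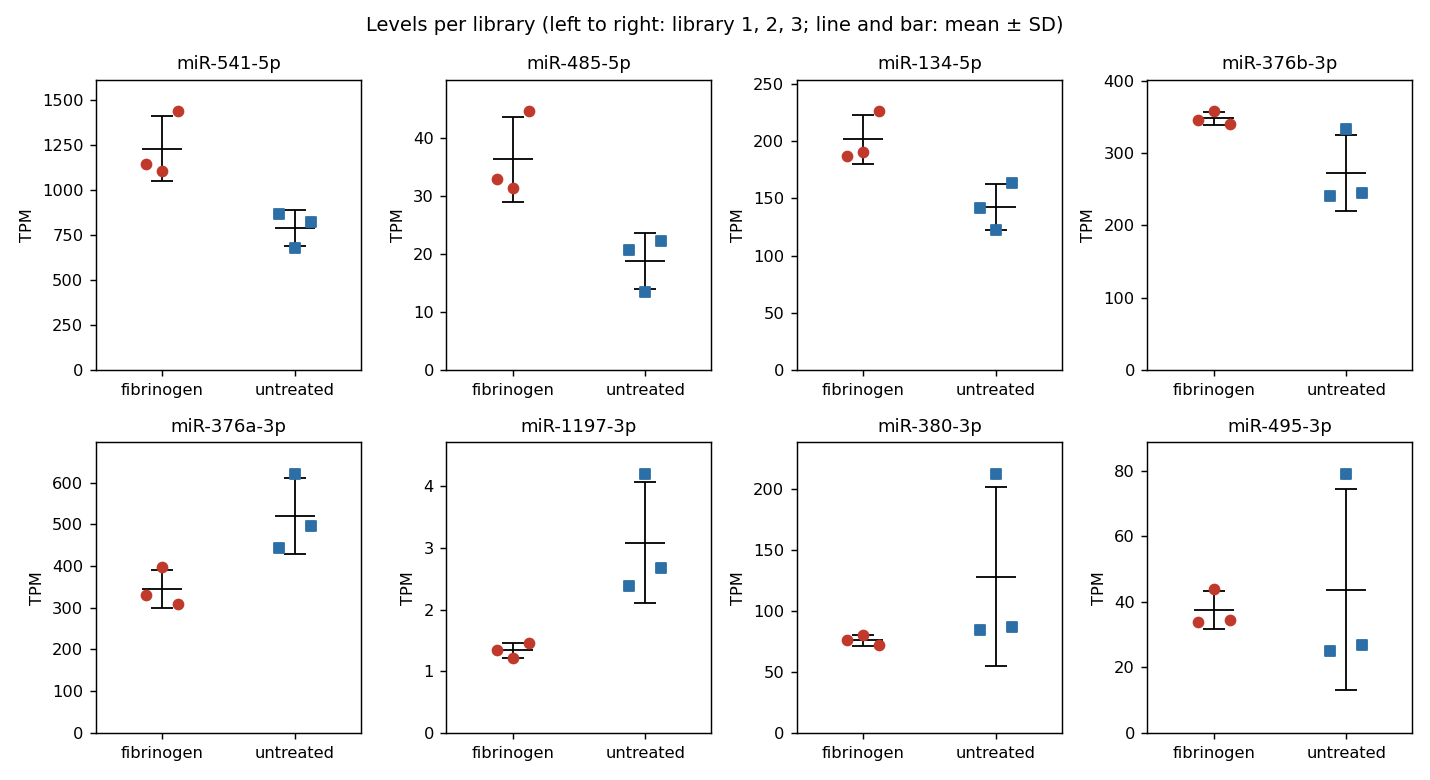
Level in TPM of 8 members in each library, fibrinogen-treated (circles) at the left and untreated (squares) at the right of each panel, with the mean and SD of the 3 libraries. The groups are separate for all but miR-495-3p, and untreated library 2, the middle square, stands far above the other libraries for miR-380-3p and miR-495-3p.

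The 3p arms of Mir376a and Mir376b, close relatives, stood on opposite sides of 0. The remaining arms of Mir376a, Mir376b and Mir376c had log2 fold changes below 0, all with overlapping groups. These were -0.47 for miR-376a-5p, -0.30 for miR-376b-5p, -0.28 for miR-376c-5p and -0.15 for miR-376c-3p. miR-376a-3p had 329.4, 397 and 308 TPM in fibrinogen-treated OPCs, against 443, 622 and 496.4 TPM in untreated OPCs. miR-376b-3p went the other way, with 345, 358 and 340.0 TPM in fibrinogen-treated OPCs, against 240.3, 333 and 244 TPM in untreated OPCs. Neither pair of groups overlapped, and the log2 fold changes were -0.59 ± 0.17 (limma adjusted p = 0.107) and 0.37 ± 0.15 (limma adjusted p = 0.189). Without untreated library 2, the highest untreated library for both, they were -0.45 and 0.52. The sizes moved with the scaling. For miR-376a-3p the log2 fold change was -0.72 after scaling by the median ratio, -0.66 after quantile normalization and -0.75 by edgeR, and for miR-376b-3p it was 0.23 after scaling by the median ratio, 0.19 after quantile normalization and 0.20 by edgeR.

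Both hairpins are close together, Mir376b at chr12:109723458-109723539 and Mir376a at chr12:109723781-109723848. The ratio of miR-376b-3p to miR-376a-3p within a library does not depend on how libraries are scaled. It was 1.05, 0.903 and 1.103 in fibrinogen-treated OPCs, against 0.543, 0.535 and 0.492 in untreated OPCs. The means were 1.02 ± 0.10 in fibrinogen-treated OPCs and 0.523 ± 0.027 in untreated OPCs (SD, n = 3 each), a log2 difference of 0.96, with the smallest p that the exact two-sided permutation test allows, 0.1. This ratio was picked after the values were seen and is a description. Against miR-376c-3p as a common partner, miR-376b-3p had a ratio of 4.25 ± 0.43 in fibrinogen-treated OPCs and 2.97 ± 0.17 in untreated OPCs, and miR-376a-3p had 4.21 ± 0.68 in fibrinogen-treated OPCs and 5.67 ± 0.33 in untreated OPCs, again without overlap. The members of this family are known to be edited from adenosine to inosine in brain, and the table holds no separate values for edited reads.

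The 5p partner of miR-376b-3p was not separate between the groups. miR-376b-5p had 922, 944 and 767 TPM in fibrinogen-treated OPCs and 907, 1365 and 996 TPM in untreated OPCs, with overlapping groups and a log2 fold change of -0.30 ± 0.18. The 3p arm therefore made up a larger share of the hairpin's reads, 27.2%, 27.5% and 30.7% in fibrinogen-treated OPCs, against 20.9%, 19.6% and 19.7% in untreated OPCs. This share rests on the uncertain split of reads between miR-376b-5p and miR-376c-5p, which differ at 1 base. miR-376c-5p was listed at 2.85 to 5.13 TPM over the libraries. Untreated library 2 did not stand apart in this share, although it had the highest level of both arms among the untreated libraries.

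Arm use could be followed for 30 hairpins of the cluster with a mean of at least 10 TPM over both arms. The 5p arm was the larger in every library for 12 of them and the 3p arm for 16, so the cluster had no common preferred arm. The share of the 3p arm was higher in all fibrinogen-treated libraries for 2 hairpins (6.67%, against 13.0% of all 207 hairpins of this level) and lower in all of them for 5 (16.7%, against 11.6%). The 2 were Mir376b and Mir300, whose 3p share averaged 97.0% in fibrinogen-treated OPCs and 95.5% in untreated OPCs. The 5 were Mir410 (75.5% in fibrinogen-treated OPCs and 82.4% in untreated OPCs), Mir369 (50.3% in fibrinogen-treated OPCs and 55.0% in untreated OPCs), Mir323, Mir541 and Mir487b, of which the last 3 differed by less than 1 percentage point. The largest difference of the 30 was that of Mir376b, 28.5 ± 1.9% in fibrinogen-treated OPCs and 20.1 ± 0.75% in untreated OPCs (SD, n = 3 each).

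**Figure D4:**
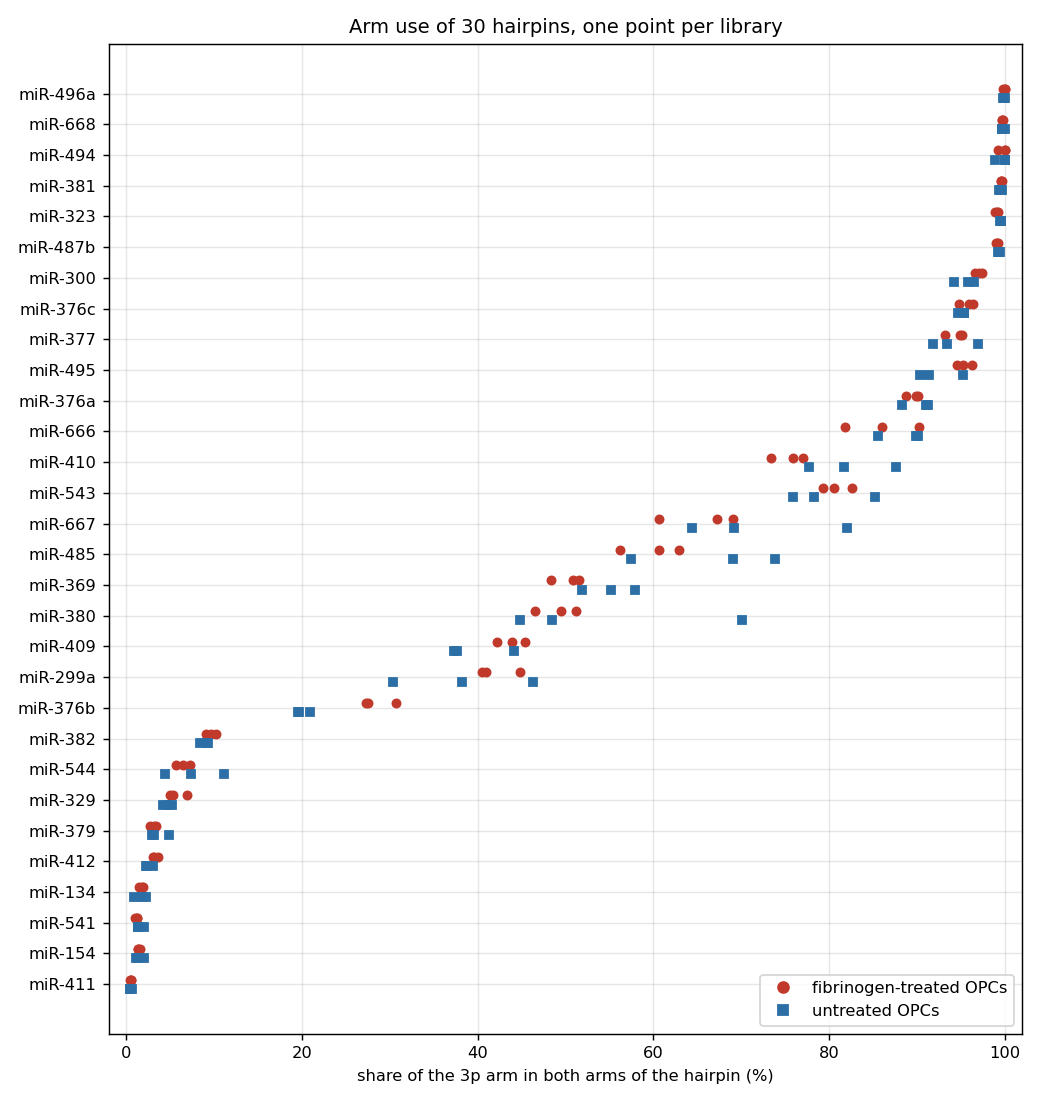
Share of the 3p arm in the summed TPM of both arms, in percent, for 30 hairpins ordered by their untreated mean, with a point for each library (circles fibrinogen-treated, squares untreated). Most hairpins sit near 0% or 100% in all 6 libraries; Mir376b is the hairpin with the widest gap between the groups, at 27.2% to 30.7% in fibrinogen-treated OPCs against 19.6% to 20.9% in untreated OPCs.

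Of the 64 tested members, 20 had their highest value in fibrinogen library 3 and 21 their lowest, and 25 had their highest value in untreated library 2 and 18 their lowest. The other 4 libraries each held from 1 to 13 of the highest and from 3 to 8 of the lowest values. These counts are over the members alone, and the same count over all miRNAs is not given here. Untreated library 2 decided the values of some members. miR-380-3p had 75.8, 80.5 and 71.6 TPM in fibrinogen-treated OPCs, against 84.3, 212 and 86.7 TPM in untreated OPCs. The groups were separate, but the log2 fold change of -0.60 ± 0.35 was -0.17 without untreated library 2. miR-495-3p, which targets Bdnf, had 33.9, 44.1 and 34.4 TPM in fibrinogen-treated OPCs, and 25.1, 79.1 and 26.8 TPM in untreated OPCs. Its log2 fold change was -0.02 ± 0.42 with untreated library 2 and 0.50 without it.
miR-380-3p: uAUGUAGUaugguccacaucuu
miR-495-3p: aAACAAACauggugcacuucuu
miR-369-3p: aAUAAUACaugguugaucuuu
These are shown, with the seed in capitals, because they are among the members of low GC content. It was 36.4% for miR-380-3p and miR-495-3p and 23.8% for miR-369-3p, beside a median of 45.5% over the 60 tested members with a sequence.

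Low GC content and a lower level in fibrinogen-treated OPCs went together. Among the 19 members of at most 42% GC, 4 had a log2 fold change above 0 and 15 below it, with a median of -0.28, and in untreated library 2 they lay a median of 0.47 (log2) above untreated libraries 1 and 3. Among the 16 members above 50% GC, 12 were above 0 and 4 below it, with a median of 0.33, and the difference of untreated library 2 was -0.17. Over the 60 members, the log2 fold change and the GC content had a Pearson r of 0.53 and a Spearman rho of 0.54, and without untreated library 2 these were 0.36 and 0.34. Without fibrinogen library 3, where 58 of them were tested, they were 0.38 and 0.42. The other 383 known miRNAs with a sequence had 0.47 and 0.54. For the difference of untreated library 2 against GC content, the Spearman rho was -0.58 over the 60 members and -0.35 over these 383. All points share the same 6 libraries, and these correlations are given with no p.

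**Figure D5:**
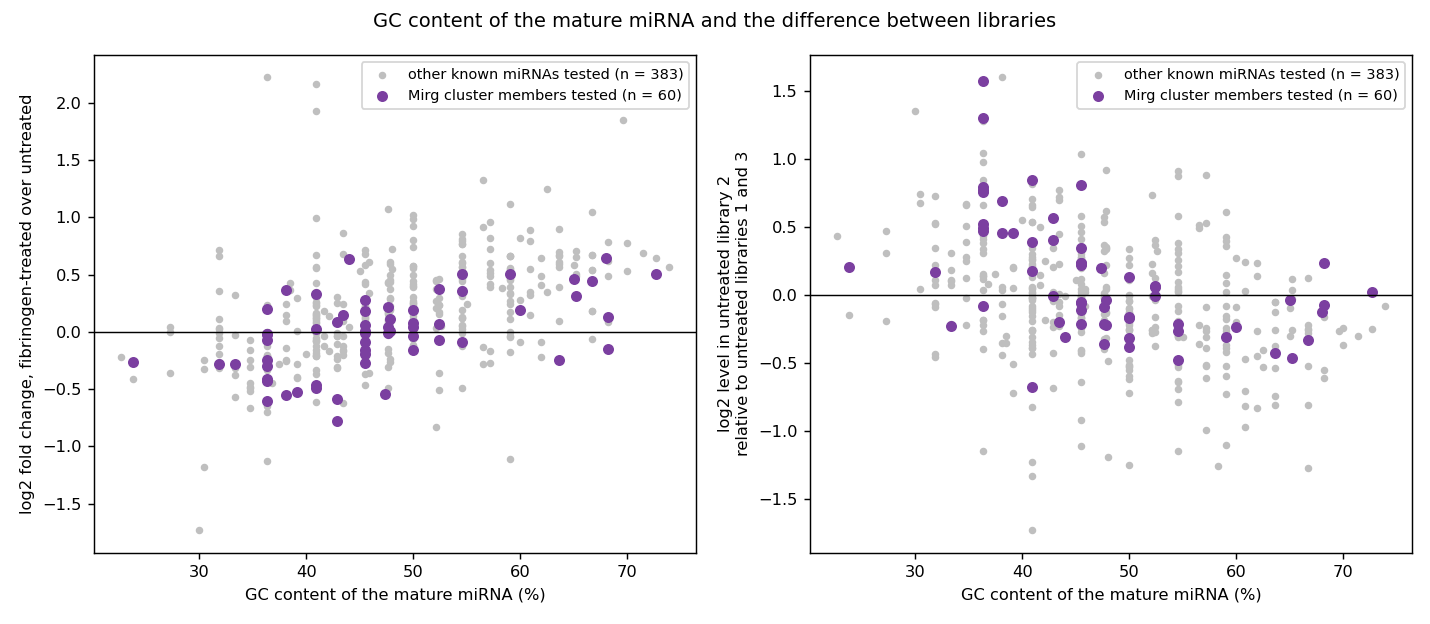
GC content of the mature miRNA in percent against the log2 fold change of fibrinogen-treated over untreated OPCs (left) and against the log2 level in untreated library 2 relative to untreated libraries 1 and 3 (right). Purple points are the 60 members with a sequence and grey points the 383 other known miRNAs; members of higher GC content have higher values at the left and lower ones at the right.

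The slope of the log2 level, relative to the mean of all libraries, on the GC content of the hairpin was above 0 in the 3 fibrinogen-treated libraries (0.06, 0.06 and 0.16 per 10 percentage points, over 417 known miRNAs) and below 0 in the 3 untreated ones (-0.08, -0.17 and -0.03). The steepest slopes were those of fibrinogen library 3 and untreated library 2. This trend was removed from each library over the miRNAs whose own mature sequence was matched to a hairpin sequence. This left out 8 of the 64 tested members, some for want of a mature sequence (miR-485-5p among them) and some for want of a hairpin sequence (both arms of Mir666 and Mir544). limma then called 2 of the 56 members higher (3.57%, against 3.36% of the 417) and none lower (0.480% of the 417). They were miR-541-5p (log2 fold change 0.75, limma adjusted p = 0.0414) and miR-376b-3p (log2 fold change 0.60, limma adjusted p = 0.0444). Several other values were smaller in size than without this step, with miR-376a-3p at -0.27 (limma adjusted p = 0.267), miR-495-5p at -0.26, miR-496a-3p at -0.35 and miR-134-5p at 0.29, while miR-1197-3p was at -0.71. Others were larger in size, with miR-381-3p at 0.45, miR-379-5p at 0.37 and miR-758-3p at -0.59. Of the 56 members, 37 were then above 0 and 19 below it. The median of the 56 was then 0.10, beside 0.12 over all 417. When hairpins were matched by name too, an alternative chosen after seeing the data, 60 members and 438 miRNAs entered, and the same 2 members were called higher (3.33%, against 3.20% of the 438) and none lower (0.457% of the 438). miR-485-5p then had a log2 fold change of 0.95 (limma adjusted p = 0.0613).

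Members differed in which libraries of a group were high. After the mean of each group was taken off, the median Pearson r was 0.04 over the 903 pairs of the 43 members of at least 10 TPM, 0.02 for members with the other known miRNAs of that level and 0.07 for members with the neighbours in the region. These medians run over pairs of either sign and are descriptions. The arms of the same hairpin had a median of -0.22 over 14 hairpins, from the same 6 libraries. The log2 fold changes of the arms were alike to a degree, with a Pearson r of 0.54 over 28 hairpins, which is a description.

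The neighbours of the cluster in the same imprinted region, from Mir770 to Mir370, had 28 rows, of which 22 were tested. All 28 summed to 16818, 18353 and 18396 TPM in fibrinogen-treated OPCs and 17487, 18301 and 18369.5 TPM in untreated OPCs, slightly more than the cluster itself. limma called none of the 22, with a median log2 fold change of 0.07, 5 higher and 1 lower at an unadjusted p under 0.05 (22.7% and 4.55%, beside the 20.1% and 5.60% of all miRNAs given above), and DESeq2 called 1 higher and 4 lower (4.55% and 18.2%, beside the 4.45% and 6.10% of all miRNAs).

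Of the remaining members of known role, miR-494-3p had 14.6, 11.3 and 10.9 TPM in fibrinogen-treated OPCs and 11.96, 15.2 and 14.0 TPM in untreated OPCs, with overlapping groups and a log2 fold change of -0.16. miR-379-3p had 76.1, 73.6 and 66.6 TPM in fibrinogen-treated OPCs and 60.7, 91.7 and 69.1 TPM in untreated OPCs, with a log2 fold change of -0.01. miR-3072-3p, the last member by position, had 1.94, 2.16 and 2.20 TPM in fibrinogen-treated OPCs and 2.30, 2.02 and 4.01 TPM in untreated OPCs. The other 34 tested members, outside the rule for the members described singly, had log2 fold changes between -0.47 and 0.50. The 9 members that did not reach 1 TPM in 3 libraries had at most 4 reads in any library, which is too few to compare.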

How the data were processed

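The study made small RNA libraries from OPCs with a kit meant to remove PCR duplicates, trimmed the reads with cutadapt 1.15, removed duplicates and mapped the rest with Bowtie 1.1.2. Reads of known and newly predicted miRNAs were counted by miRDeep2. The labels name the genome build mm10 and the methods GRCm39; member coordinates and sequences were taken from RefSeq (GRCm38.p6), not from the study. The authors deposited 1 value per miRNA and library as TPM, which behaved as RPM: between 99.8% and 100% of the values were within 0.1 of a whole multiple of 1 read, so the deposited values carry no length correction.

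Every miRNA that reached 1 TPM in 3 or more libraries (607, of them 514 known and 93 predicted) was tested on log2(TPM + 1) with limma 3.58.1 (trended variance, R 4.3.3), fibrinogen-treated against untreated, n = 3 each, with Benjamini-Hochberg adjustment over all 607. A log2 fold change on this scale understates the change of rare miRNAs. edgeR 4.0.16 and DESeq2 1.42.0 were run on the recovered reads as alternatives, since the deposited values were normalized; a GC trend with hairpins matched by name and the study's criteria on edgeR's exact test were added after seeing the data. The test was also run on simulated reads with known changes. These had the same extra spread for every miRNA and no GC trend, so that check does not cover the differences between libraries described above. The lists and rules were chosen with earlier results of these data known. Members described singly were those with the smallest unadjusted p under 0.05 (12), the 12 most abundant, the 3 largest and 3 smallest log2 fold changes, a set of well studied members, and the first and last hairpin. No test was run over the cluster as a set.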

Additional observations from a re-analysis of the deposited data

How the results depend on the processing

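No member was called by limma with a pseudocount of 0.1 or 5 TPM, without a filter or with at least 10 TPM, after scaling by the median ratio or quantile normalization, among known miRNAs alone, with any library left out, by the study's criteria (a log2 change of over 1 in size at an unadjusted p under 0.05) on the limma values, or by edgeR's quasi-likelihood test. The same criteria on edgeR's exact test, chosen after seeing the data, gave 1 member lower, miR-1197-3p. With the GC trend of the hairpins removed, with or without hairpins matched by name (also chosen after seeing the data), 2 were called higher, by DESeq2 2 higher and 5 lower, and by edgeR's exact test 2 lower. The cause of these differences between tools was not tested. The median log2 fold change of the members, 0.00, moved to -0.13 after scaling by the median ratio, -0.12 after quantile normalization, -0.18 by the count tools and 0.10 with either GC trend removed, and ranged from -0.091 to 0.028 with a library left out. The ratio of summed levels was 0.955 after scaling by the median ratio and 1.03 to 1.07 with a library left out.

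Over all miRNAs, the 13 called higher became 8 without a filter, 7 with at least 10 TPM, 8 by edgeR's quasi-likelihood test and 27 by DESeq2, and 0 to 39 with a library left out. The 4 called lower became 1 among known miRNAs alone, 2 with either GC trend removed, 10 by edgeR's exact test, 37 by DESeq2, 8 by the study's criteria and 9 by them on edgeR's exact test, and 0 to 6 with a library left out. Of the 39 and 0 at the ends of the higher count, the first was without untreated library 3 and the second without fibrinogen library 1; the 0 called lower came without untreated library 1 or 2.

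The groups share replicate numbers, and same-numbered libraries had deviations from their group means that correlated at 0.04, 0.23 and 0.12, so not every pair was over 0.1 and the numbers were not taken as pairs, although each fibrinogen-treated library correlated best with the untreated library of its number. With the replicate block 0 members were called, and 11 miRNAs higher and 4 lower. Among the 30 members described singly, 9 had another sign under some alternative, none of them called and none with an absolute log2 fold change above 0.16 in the values given. Depth limits the members under 10 TPM, which rest on few reads.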

Other observations

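Of the 9 members too rare to test, miR-299b-3p was listed with 1, 3 and 1 reads in fibrinogen-treated OPCs and 0, 0 and 1 reads in untreated OPCs. miR-494-5p, miR-679-3p and miR-3072-5p had 0 reads in 4 of the 6 libraries, which allows up to 0.20 to 0.25 TPM in a library with none (counting error only). Their partners from the same hairpins were detected in every library, miR-494-3p at 10.9 TPM or more.

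In the neighbouring part of the imprinted region, miR-540-3p had 27.2, 25.3 and 32.6 TPM in fibrinogen-treated OPCs, against 17.1, 14.1 and 15.6 TPM in untreated OPCs. This was the largest log2 fold change of the neighbours, 0.82 ± 0.17 (SE), with a limma adjusted p of 0.0600, and the groups did not overlap. Its partner miR-540-5p had 18.7, 22.3 and 15.2 TPM in fibrinogen-treated OPCs and 16.7, 28.8 and 24.5 TPM in untreated OPCs. miR-136-5p had 1653, 1754 and 1395 TPM in fibrinogen-treated OPCs, against 1928, 3854 and 1989 TPM in untreated OPCs, and untreated library 2 was again the highest. Both were named after their values were seen.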
